A study of Homo sapiens and Mus musculus with 92 samples.

Results

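The antigen presentation genes of MHC class I were followed in HEL cells after knockdown (KD) of MLL1 and after KD of AF9. They are the 9 genes HLA-B, HLA-C, HLA-E, HLA-F, B2M, TAP1, TAP2, TAPBP and NLRC5, taken from the 28103 gene symbols of the count tables by an exact match of the symbol. All 9 were found in both tables. HEL is an established human erythroleukemia line, labelled as erythroblast. Polyadenylated RNA was sequenced in the MLL1 experiment, with 3 control and 3 MLL1 KD libraries, and in a separate AF9 experiment, with 2 control and 2 AF9 KD libraries. KD cells carried a lentiviral shRNA against KMT2A, the gene of MLL1, or against MLLT3, the gene of AF9, and the study's methods give a non-targeting shRNA of the same vector for control cells, which the labels call WT. Transduced cells were selected as pools with puromycin. RNA of 1 shRNA per target was analysed here, so the depletion of a target and other effects of its shRNA cannot be told apart. The labels do not say whether replicates came from separate transductions, so p values measure only the spread between these libraries.

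MLL1 is a histone methyltransferase at promoters, and AF9 is a chromatin reader that joins elongation factors to transcribed genes. MHC class I molecules show peptides made inside the cell to CD8 T cells and to natural killer cells. A heavy chain pairs with the light chain β2-microglobulin in the endoplasmic reticulum, where the TAP transporter delivers peptides and tapasin holds the empty chain next to it. NLRC5 is the transactivator of this set of genes. It binds no DNA by itself and works through factors that sit on the X and Y boxes of class I promoters, while interferon acts on the same promoters through the IRF proteins, among others.

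Of the 9 loci, 7 lie in the MHC region of chromosome 6 in the GENCODE annotation of hg38. The heavy chain genes are HLA-F at chr6:29722775-29738528, HLA-E at chr6:30489509-30494194, HLA-C at chr6:31268749-31272130 and HLA-B at chr6:31353872-31367067. Classical HLA-B and HLA-C present a wide range of peptides, HLA-E is a ligand of the CD94/NKG2 receptors of natural killer cells, and HLA-F is a further nonclassical chain. The transporter genes TAP2 and TAP1 lie at chr6:32821833-32838739 and chr6:32845209-32853816, and TAPBP, which encodes tapasin, lies at chr6:33299694-33314284. Outside the MHC region, B2M lies at chr15:44711358-44718851 and NLRC5 at chr16:56989485-57083531. Counts are sums over the exons of each gene.

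Promoter windows of 300 bases, from 250 before to 50 after the transcription start site, were taken from RefSeq on GRCh38.p14 for 7 of the 9 genes, and HLA-E and NLRC5 were not matched. Motifs were searched on both strands. The Y box core ATTGG lay in the windows of 5 of the 7 genes (B2M, HLA-B, HLA-C, HLA-F and TAP1) and in 34.6% of all 35116 windows. The interferon-stimulated response element GAAANNGAA lay in those of B2M, HLA-F, TAP1, TAP2 and TAPBP and in 8.11% of all windows. The X1 box CCNAGNNAC lay in those of HLA-C, HLA-F, TAP1 and TAPBP and in 16.5% of all windows. The NF-kappa B element GGGATTCCC lay in that of HLA-B and in 0.384% of all windows. The 210 bases before the start site are shown for the 3 heavy chains with a window, for B2M, whose RNA fell in AF9 KD cells, and for TAP1 as a carrier of the interferon element. Capitals mark every motif match, and adjoining capitals in B2M and TAP1 are 2 overlapping copies of the interferon element.
HLA-B, chr6:31357180-31357389, minus strand: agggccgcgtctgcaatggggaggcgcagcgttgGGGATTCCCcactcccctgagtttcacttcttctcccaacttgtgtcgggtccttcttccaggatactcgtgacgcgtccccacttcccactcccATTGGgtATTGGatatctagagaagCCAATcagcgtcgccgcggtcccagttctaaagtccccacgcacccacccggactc
HLA-C, chr6:31272093-31272302, minus strand: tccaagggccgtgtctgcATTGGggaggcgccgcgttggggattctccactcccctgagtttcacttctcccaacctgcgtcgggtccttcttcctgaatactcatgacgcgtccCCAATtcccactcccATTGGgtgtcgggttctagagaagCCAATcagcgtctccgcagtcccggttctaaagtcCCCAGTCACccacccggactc
HLA-F, chr6:29723224-29723433, plus strand: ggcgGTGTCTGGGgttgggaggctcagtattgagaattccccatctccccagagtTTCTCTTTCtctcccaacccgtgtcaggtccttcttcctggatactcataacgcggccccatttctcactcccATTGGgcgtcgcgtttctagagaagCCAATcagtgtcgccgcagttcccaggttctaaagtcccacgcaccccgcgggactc
B2M, chr15:44711307-44711516, plus strand: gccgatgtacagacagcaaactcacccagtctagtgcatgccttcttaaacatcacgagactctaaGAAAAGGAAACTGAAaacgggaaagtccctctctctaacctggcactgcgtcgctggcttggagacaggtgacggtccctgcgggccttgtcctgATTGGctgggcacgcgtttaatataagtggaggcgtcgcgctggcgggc
TAP1, chr6:32853705-32853914, minus strand: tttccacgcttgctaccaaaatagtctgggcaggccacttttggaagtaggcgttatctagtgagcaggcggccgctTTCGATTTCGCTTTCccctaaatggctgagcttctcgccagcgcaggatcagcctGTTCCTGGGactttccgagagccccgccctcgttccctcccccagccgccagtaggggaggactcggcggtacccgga
HLA-B held 3 Y box cores between bases -82 and -52, and HLA-C and HLA-F each held a pair of them in the same stretch, in opposite orientation. The interferon elements of B2M lay between bases -144 and -130. A match is a description of the letters and not evidence that a factor binds there. Element names are those of the exact strings searched, and whether a match lies at the known place of that element was not tested. A window without a match may hold a variant that the string misses.

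Library totals ran from 6966345 to 10380241 counts in the MLL1 experiment and from 12278989 to 14232408 in the AF9 experiment. All 9 erythroid markers examined were at a mean of at least 1 TPM (transcripts per length and depth) in each experiment. Replicate 1 of both groups of the MLL1 experiment stood apart from replicates 2 and 3, and its log2 level of HLA-E differed from their mean by -0.80 in control cells and by -1.23 in MLL1 KD cells. Results of the MLL1 experiment are therefore given also with the replicate number as a block, which compares KD and control libraries of the same number. In the AF9 experiment, genes of higher GC content had higher log2 fold changes (Spearman correlation of 0.48 across genes, which are not independent), against -0.069 in the MLL1 experiment. Values after removal of this trend are given where a call depends on it. Part of the transcript of some genes is shared with other genes, and how reads that match several genes were counted is not given in the sources used here. Of the 31-base stretches of the canonical transcript, 15.5% of HLA-B, 19.6% of HLA-C, 12.0% of HLA-E and 8.69% of HLA-F occurred in transcripts of another gene, as did 35.5% of TAP2, 13.9% of TAPBP, 1.88% of TAP1 and none of B2M and NLRC5. HLA genes are also highly polymorphic, and how well the alleles of HEL cells map to the reference was not tested.

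The targeted genes were checked first. KMT2A stood at 1321, 1298 and 1256 CPM (counts scaled to library size, with TMM factors) in control replicates 1 to 3 and at 812, 814 and 833 CPM in MLL1 KD cells. KD cells kept 63.5% of the control mean and all lay below control cells (log2 fold change -0.66, SE 0.09). Its adjusted p was 0.073 by edgeR without the block and 3.5e-07 with it. MLLT3 stood at 548 and 527 CPM in control cells and at 107 and 92.5 CPM in AF9 KD cells, 18.6% of control (log2 fold change -2.43, SE 0.11, adjusted p = 3.1e-08). The other target moved less in each experiment. MLLT3 was at a log2 fold change of -0.28 in MLL1 KD cells (adjusted p = 0.62, and 0.017 with the block), and KMT2A was at -0.32 in AF9 KD cells (adjusted p = 0.020), both under the fold change of 1.5 that a call required beside an adjusted p under 0.05.

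To see how the class I genes stand in the cells before KD, their levels were compared per length, as TPM. The length was that of all merged exons, 4623 bases for HLA-B and 4315 for HLA-F, whose canonical transcripts have 1536 and 1480. For HLA-E it was 2922 bases against 2548. The order of genes in both experiments may therefore depend on the length used, and no other length was tried. B2M was the highest of the 9 in both sets of control cells, at 827 ± 3.8 TPM (SD, n = 3) in the MLL1 experiment and 1985 ± 84.6 TPM (SD, n = 2) in the AF9 experiment. In the MLL1 experiment NLRC5 followed at 58.8 ± 2.3 TPM, HLA-E at 56.4 ± 15.1 TPM and TAPBP at 45.8 ± 5.9 TPM. The ranges of NLRC5 and of TAPBP each overlapped that of HLA-E. TAP1 (12.7 ± 1.9 TPM) lay apart from the next group, HLA-F (8.02 ± 1.5 TPM), HLA-B (7.79 ± 1.2 TPM) and TAP2 (5.94 ± 1.8 TPM), whose ranges overlapped. HLA-C was lowest, with 8, 0 and 4 counts in control cells and 5, 1 and 2 counts in MLL1 KD cells, and was not tested there because its mean TPM was under 1. Counts of HLA-C were thus close to the limit of detection in every library of the MLL1 experiment.

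The order by the same lengths was different in control cells of the AF9 experiment. HLA-E (77.0 ± 7.8 TPM) and HLA-B (64.5 ± 4.3 TPM) came after B2M, followed by NLRC5 (45.6 ± 1.0 TPM) and HLA-C (41.6 ± 1.4 TPM). TAP1 (11.7 ± 0.89 TPM), TAP2 (6.55 ± 0.81 TPM), TAPBP (5.22 ± 1.3 TPM) and HLA-F (2.74 ± 0.20 TPM) were lower, and of all neighbours in this order the ranges of TAP2 and TAPBP alone overlapped. Set against the MLL1 experiment, mean TPM in control cells of the AF9 experiment was 8.29-fold higher for HLA-B and 2.40-fold higher for B2M, whereas TAPBP was 8.78-fold and HLA-F 2.93-fold lower. HLA-C was at 41.6 TPM against 0.807 TPM, and the 8, 0 and 4 counts behind the latter leave the size of its ratio uncertain. The 2 tables were made and normalized separately, and the experiment, the sequencing, the counting of reads and the state of the cells cannot be told apart. Control levels differed by over 4-fold for 19.1% and by over 2-fold for 46.4% of 14541 genes, so that large differences were not particular to these loci. From the first to the last class I locus on chromosome 6, 17 of 100 genes differed by over 4-fold, against 145 of 645 on the rest of that chromosome. The 17 include HLA-B, HLA-C and TAPBP, the only ones of the 9 class I genes that differed by over 4-fold. Erythroid markers summed to 2624 to 3373 TPM in control cells of the MLL1 experiment and to 35210 to 35250 TPM in those of the AF9 experiment. Their part in the different class I levels was not tested.

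**Figure D1:**
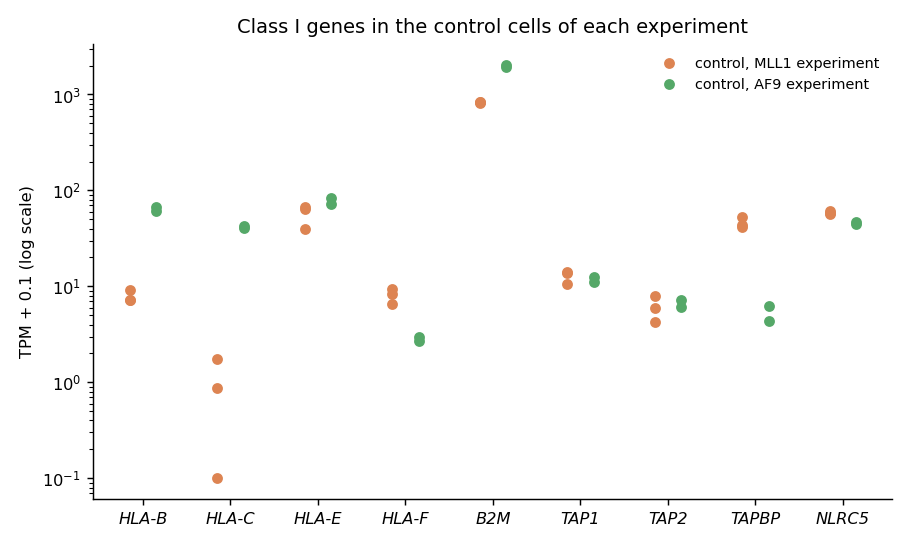
TPM plus 0.1 (log axis) of the 9 genes in control cells, each point 1 library, with 3 libraries in the MLL1 experiment and 2 in the AF9 experiment. HLA-C, HLA-B and TAPBP lie far apart between the experiments, while TAP1 and TAP2 overlap.

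In AF9 KD cells, 2 of the 9 class I genes were called lower and 0 higher. Of all 13331 genes tested 13.1% were called in either direction, 5.06% lower and 8.02% higher. The called genes were the light chain B2M and the heavy chain HLA-E, and the transactivator NLRC5 was higher by less than 1.5-fold. Log2 fold changes of the 9 genes ran from -0.69 to 0.83 with a median of -0.12, against a median of 0.008 over all genes tested. At any fold change, 3 of the 9 passed the adjusted p, and 29.0% of all genes did. With the GC trend removed 2 of the 9 were again called lower, HLA-E and HLA-C, where 8.19% of all genes were called, 3.70% lower and 4.49% higher.

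B2M, the light chain that pairs with class I heavy chains, fell in AF9 KD cells. It stood at 1489 and 1420 CPM in control cells and at 878 and 924 CPM in AF9 KD cells, from 11351 to 20522 counts per library. Both KD libraries lay well below both control libraries, at 61.9% of the control mean. The log2 fold change was -0.69 (SE 0.10, 95% interval -0.91 to -0.48, adjusted p = 3.4e-04). B2M has a low GC content of 41.4%, and with the GC trend removed its log2 fold change was -0.48 (adjusted p = 0.0023), which passed the test and missed the fold change of 1.5.

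HLA-E fell as well, to 64.2% of the control mean. It stood at 48.8 and 57.0 CPM in control cells and at 28.7 and 39.3 CPM in AF9 KD cells, with no overlap. The log2 fold change was -0.64 (SE 0.15, adjusted p = 0.0053), and it was -0.85 (adjusted p = 1.4e-04) with the GC trend removed. The distance between the KD libraries was large next to the change. Without AF9 KD replicate 1 the log2 fold change was -0.43 (adjusted p = 0.013), without control replicate 2 it was -0.52 (adjusted p = 0.019), and with total counts in place of TMM factors it was -0.55 (adjusted p = 0.022), all under the fold change of 1.5.

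The classical heavy chains did not pass the test with all libraries in the fit, and their values turned on the KD library left out. HLA-B stood at 66.3 and 73.8 CPM in control cells and at 50.5 and 74.0 CPM in AF9 KD cells. KD replicate 2 lay above both control libraries and KD replicate 1 below both, and the log2 fold change was -0.17 (95% interval -0.48 to 0.14, adjusted p = 0.42). It was -0.47 (adjusted p = 0.0028) without KD replicate 2 and 0.084 (adjusted p = 0.57) without KD replicate 1. HLA-C stood at 23.8 and 25.2 CPM in control cells and at 17.4 and 23.7 CPM in AF9 KD cells, a log2 fold change of -0.25 (SE 0.15, adjusted p = 0.24). It was -0.49 (adjusted p = 0.021) without KD replicate 2 and -0.05 (adjusted p = 0.84) without KD replicate 1. HLA-C has the highest GC content of the 9 genes, 60.9%, and with the GC trend removed it was called lower (log2 fold change -0.67, adjusted p = 0.0014). The nonclassical chain HLA-F had few reads, 36 and 35 counts in control cells and 43 and 87 counts in AF9 KD cells. All KD values of HLA-F lay above control, with most of the difference in KD replicate 2 (log2 fold change 0.83, SE 0.32, adjusted p = 0.068). Without KD replicate 1 HLA-F was called higher (1.23, adjusted p = 0.0020), and without KD replicate 2 it was at 0.27 (adjusted p = 0.56).

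NLRC5 moved the other way from B2M and HLA-E. It stood at 130 and 136 CPM in control cells and at 166 and 183 CPM in AF9 KD cells, all KD libraries above control. Its level was 131.8% of control (log2 fold change 0.40, SE 0.09, adjusted p = 0.0067), so it passed the test and not the fold change, and it was at 0.23 (adjusted p = 0.037) with the GC trend removed. Without control replicate 1 NLRC5 no longer passed the test (log2 fold change 0.37, adjusted p = 0.14). The transporter and loading genes TAP1 (log2 fold change 0.16, 95% interval -0.19 to 0.51), TAP2 (-0.12, -0.46 to 0.22) and TAPBP (0.29, -0.18 to 0.76) did not pass the test, and control and KD libraries overlapped in each. Of the 9 genes, 3 had all KD libraries below control and 2 all above, where 33.2% and 33.0% of all genes tested did, so non-overlap alone says little with 2 libraries per group. An exact two-sided permutation test over 2 against 2 libraries cannot give a p below 0.333.

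Erythroid markers summed to 35210 to 35250 TPM in control cells and to 23720 to 28180 TPM in AF9 KD cells. Of 6 monocyte and dendritic cell markers, summed at 212 to 231 TPM in control cells and 169 to 194 TPM in AF9 KD cells, 1 was at a mean of at least 1 TPM, and CD14 and CD1C were at 0 in both groups. Megakaryocyte markers summed to 848 to 1021 TPM in control cells and to 933 to 1247 TPM in AF9 KD cells. Markers of T and natural killer cells summed to 16.8 to 18.0 TPM and to 19.6 to 27.0 TPM. The ranges of B cell and of fibroblast markers overlapped between the groups. The part of these markers in the fall of B2M and HLA-E was not tested. In bulk RNA, fewer cells with a transcript and less of it per cell cannot be told apart.

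**Figure D2:**
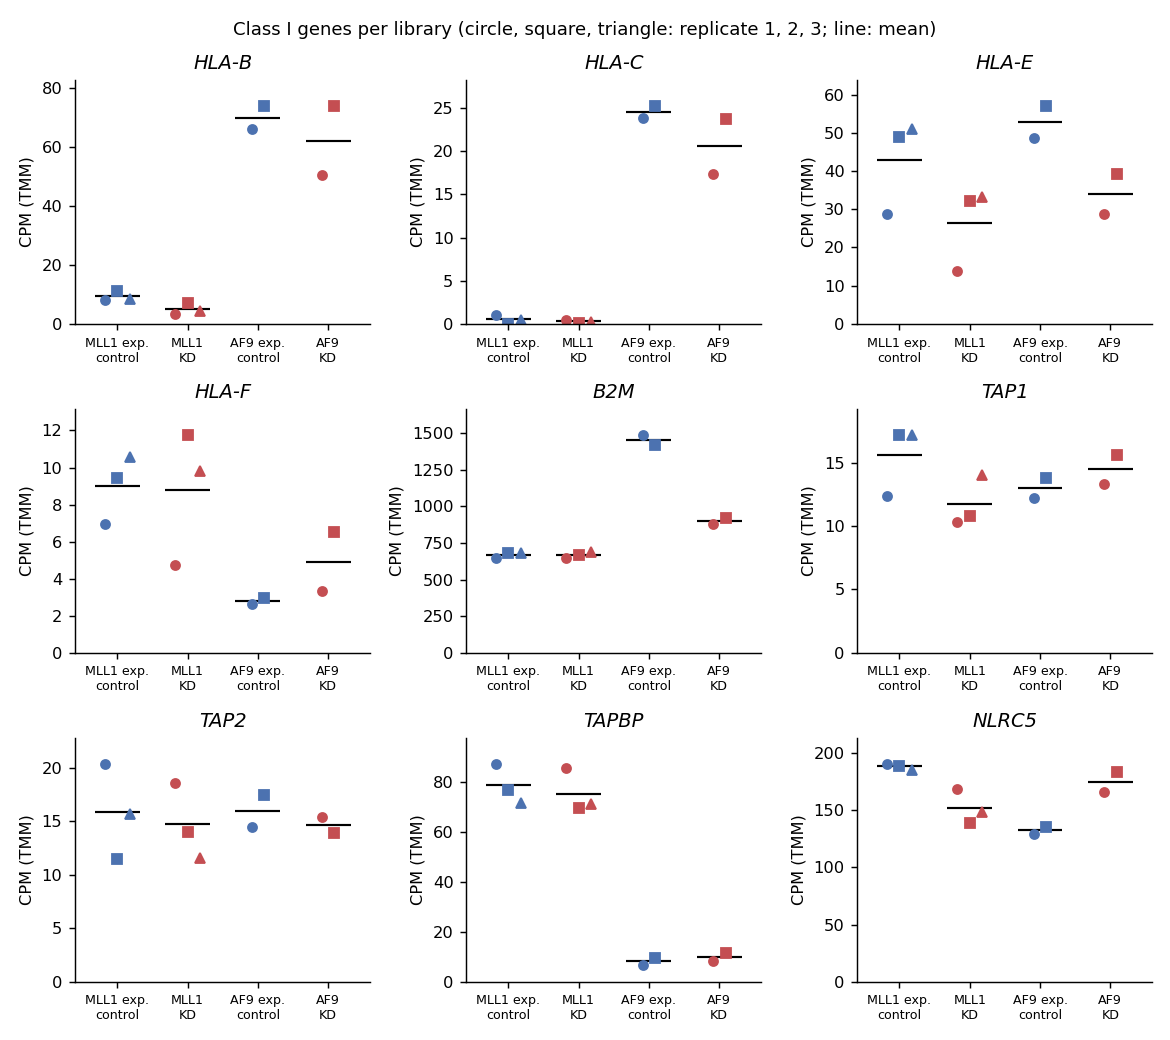
CPM of each gene in every library (linear axes from 0), with control cells in blue, KD cells in red, the marker shape giving the replicate and the line the mean. B2M falls from 1489 and 1420 to 878 and 924 CPM in AF9 KD cells and lies between 646 and 686 CPM in the MLL1 experiment.

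In MLL1 KD cells, none of the 8 class I genes tested was called by edgeR without the replicate block, where 0.0625% of 14393 genes were called, 0.0347% lower and 0.0278% higher. Of the 8, HLA-B and NLRC5 were at an unadjusted p under 0.05, as were 1437 of the 14393 genes. DESeq2 also called 0 of the 8. With the block, 2 of the 8 were called lower and 0 higher, and of all genes 4.72% were called, 2.51% lower and 2.22% higher. These were the heavy chains HLA-B and HLA-E. Log2 fold changes ran from -0.91 to -0.004 with a median of -0.21, against a median of 0.01 over all genes tested.

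HLA-B stood at 8.27, 11.2 and 8.53 CPM in control replicates 1, 2 and 3 and at 3.47, 7.23 and 4.32 CPM in MLL1 KD cells, from 35 to 81 counts. All KD libraries lay below all control libraries, at 53.6% of the control mean. The log2 fold change was -0.91 (SE 0.32, adjusted p = 0.38) without the block and -0.94 (SE 0.24, adjusted p = 0.012) with it. KD minus control of the same number was -1.20, -0.62 and -0.94 on the log2 scale. In replicates 2 and 3 alone, an alternative chosen after the data were seen, HLA-B was also called lower (log2 fold change -0.80, adjusted p = 0.017). DESeq2 with the block did not call it.

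HLA-E stood at 28.7, 49.0 and 51.1 CPM in control replicates 1, 2 and 3 and at 13.8, 32.0 and 33.2 CPM in MLL1 KD cells. The groups overlapped because control replicate 1 lay below KD replicates 2 and 3, while within each number the KD library was lower, with log2 differences of -1.05, -0.61 and -0.62. The log2 fold change was -0.71 (SE 0.36, adjusted p = 0.59) without the block and -0.75 (SE 0.13, adjusted p = 8.0e-04) with it. Without MLL1 KD replicate 1 it was -0.40 (adjusted p = 0.51), and without the other libraries in turn it ran from -0.93 to -0.57. Replicates 2 and 3 alone gave -0.62 (adjusted p = 1.9e-05).

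B2M, which fell in AF9 KD cells, stood at 646, 680 and 679 CPM in control cells and at 648, 665 and 686 CPM in MLL1 KD cells. Its log2 fold change was -0.004, and the 95% interval of -0.22 to 0.21 does not include a change of 1.5-fold. NLRC5 stood at 191, 189 and 185 CPM in control cells and at 169, 139 and 149 CPM in MLL1 KD cells. All KD libraries of NLRC5 lay below control, at 80.7% of the control mean (log2 fold change -0.31, SE 0.12, adjusted p = 0.42, and 0.014 with the block, under the fold change of 1.5). HLA-B and NLRC5 were thus the 2 of 8 genes whose groups did not overlap, all lower, where 9.39% of all genes tested lay all below control and 8.64% all above. An exact two-sided permutation test over 3 against 3 libraries cannot give a p below 0.1.

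The remaining genes of the set did not pass the test with or without the block. TAP1 stood at 12.4, 17.2 and 17.2 CPM in control cells and at 10.3, 10.8 and 14.0 CPM in MLL1 KD cells, lower in 3 of 3 numbers (log2 fold change -0.41, SE 0.22, adjusted p = 0.61, and 0.14 with the block). HLA-F (log2 fold change -0.04, 95% interval -0.86 to 0.78), TAP2 (-0.10, -0.74 to 0.53) and TAPBP (-0.06, -0.39 to 0.27) had control and KD libraries that overlapped. The interval of HLA-F includes a change of 1.5-fold in either direction, and that of TAP2 a fall of that size.

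Erythroid markers summed to 2624 to 3373 TPM in control cells and to 2028 to 2373 TPM in MLL1 KD cells. The 5 markers of T and natural killer cells summed to 19.3 to 21.7 TPM in control cells and to 45.1 to 51.7 TPM in MLL1 KD cells, mostly CD2, while CD3D was at 0 in every library. Megakaryocyte markers summed to 1360 to 1703 TPM in control cells and to 1076 to 1475 TPM in MLL1 KD cells. Monocyte and dendritic cell markers summed to 44.1 to 52.3 TPM and to 28.3 to 43.2 TPM. The ranges of B cell and of fibroblast markers overlapped between the groups. The part of these markers in the lower HLA-B and HLA-E was not tested.

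**Figure D3:**
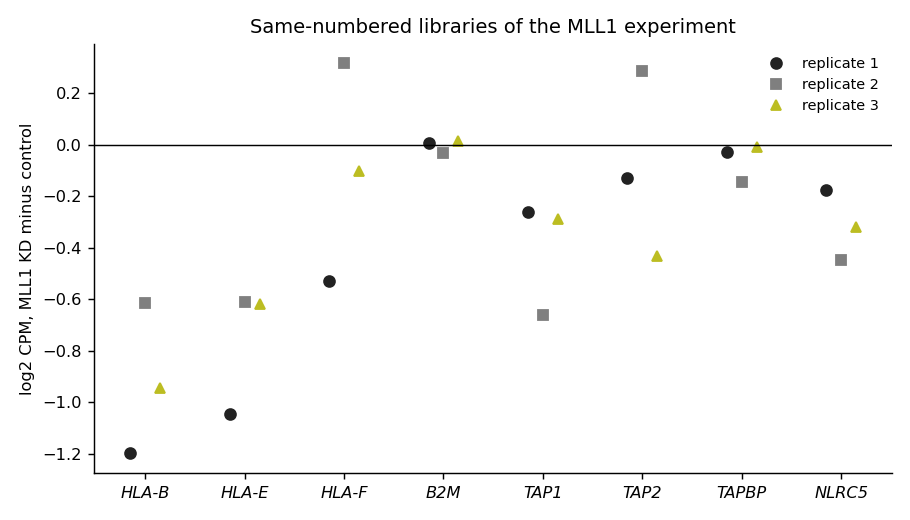
Log2 CPM of each MLL1 KD library minus the control library of the same number (y axis), for the 8 genes tested. The 3 points of HLA-B, HLA-E, TAP1, NLRC5 and TAPBP lie below 0, for TAPBP from -0.15 to -0.01, those of B2M lie within 0.032 of 0, and those of HLA-F and TAP2 lie on both sides.

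Whether a gene responded differently to the 2 KDs was tested directly, over all 10 libraries, as the log2 fold change in AF9 KD minus that in MLL1 KD. The experiments used different control cells, and the target and the experiment cannot be told apart. B2M alone among the 8 genes passed (difference -0.71, SE 0.13, adjusted p = 0.039), where 1.35% of 12729 genes did. This adjusted p ran from 6.7e-05 to 0.26 over the alternatives. NLRC5 was at 0.69 (SE 0.16, adjusted p = 0.069). Its adjusted p was 0.012 without MLL1 KD replicate 1, 0.042 with total counts and 0.16 with GC content offsets (difference 0.48). Without each other library of the MLL1 experiment it ran from 0.081 to 0.149. With the replicate number as a block in each experiment 3 of the 8 genes passed, B2M (-0.71, adjusted p = 6.7e-05), NLRC5 (0.69, adjusted p = 6.3e-04) and HLA-B (0.72, adjusted p = 0.028). In that fit 4601 of the 12729 genes were at an unadjusted p under 0.05, against 2208 without the block, so low p values were more common in it. The block also takes replicate numbers of the AF9 experiment as pairs, which the labels do not give. HLA-E differed by 0.05 with a 95% interval of -1.07 to 1.18, which is too wide to say that the KDs acted alike on it. The remaining differences were 0.74 for HLA-B, 0.85 for HLA-F, 0.55 for TAP1, -0.03 for TAP2 and 0.32 for TAPBP, none past the test.

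**Figure D4:**
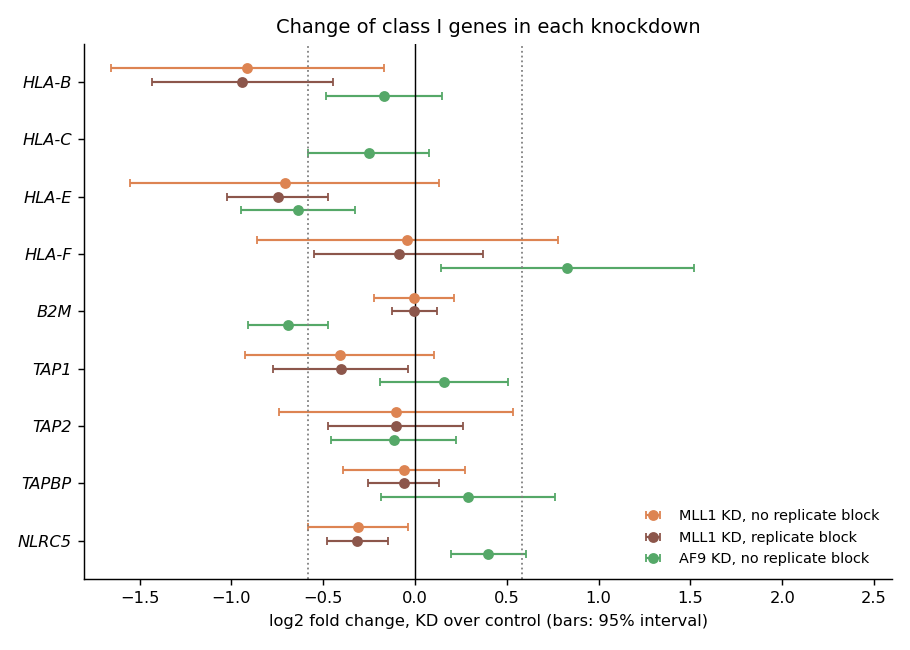
Log2 fold change of KD over control with its 95% interval from edgeR, for MLL1 KD without and with the replicate block and for AF9 KD, with dotted lines at a fold change of 1.5. B2M lies at -0.69 in AF9 KD and at -0.004 in MLL1 KD, HLA-E is below 0 in both, and HLA-C was not tested in MLL1 KD.

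Genes around this pathway were then examined by list. Of all genes tested, 13.1% were called in AF9 KD cells and 0.0625% in MLL1 KD cells without the block. At the latter share, 0 called in a list says little. The 9 genes of peptide loading and trimming, such as the chaperone gene CALR and the peptidase gene ERAP1, included 0 called in either experiment, and their medians were -0.06 in AF9 KD and 0.22 in MLL1 KD. CALR carried the replicate 1 difference of the MLL1 experiment, with 1267 CPM in control replicate 1 against 403 and 417 CPM in replicates 2 and 3. The 5 immunoproteasome genes, which cut peptides for class I, included 0 called in either experiment. Of the 14 subunits of the constitutive 20S core, 0 were called in AF9 KD cells or, without the block, in MLL1 KD cells. With the block PSMA6 alone of the 14 was called lower in MLL1 KD cells (log2 fold change -0.67, adjusted p = 5.2e-04), where 2.51% of all genes were.

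Among the 15 genes of factors that bind class I promoters, the RFX, NF-Y, CREB, NF-kappa B and USF proteins, 0 were called in either experiment, with medians of -0.07 in AF9 KD and -0.10 in MLL1 KD. RELB alone was called in AF9 KD cells with the GC trend removed, at a log2 fold change of -0.72 (adjusted p = 0.021), where 3.70% of all genes were called lower. Of 16 interferon signalling genes tested in AF9 KD cells, 1 fell and 1 rose, a share close to the 13.1% called among all genes. IFNGR1, the ligand-binding chain of the interferon gamma receptor, stood at 63.7 and 61.1 CPM in control cells and at 43.3 and 38.3 CPM in AF9 KD cells (log2 fold change -0.61, adjusted p = 0.0013). IRF3, a transcription factor of the antiviral response, rose (log2 fold change 0.73, adjusted p = 4.0e-04). With the GC trend removed, IFNGR1 (-0.43) and IRF3 (0.41) were under the fold change of 1.5. In MLL1 KD cells 0 of the 16 tested were called with or without the block.

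Of the antiviral interferon-stimulated genes, 1 of 15 tested was called lower in AF9 KD cells and 0 higher, against 5.06% and 8.02% of all genes. IFI44 fell (log2 fold change -0.82, adjusted p = 5.7e-04). With the GC trend removed IFI44 was at -0.56 and lost its call, and IFITM1, which restricts the entry of viruses, was the 1 called lower (log2 fold change -0.65, adjusted p = 4.3e-04, against -0.39 and 0.046 before). In that fit 3.70% of all genes were called lower. In MLL1 KD cells 0 of 17 were called without the block and OAS1 was called higher with it, at 1.81, 2.35 and 1.66 CPM in control cells and 7.03, 5.53 and 5.83 CPM in MLL1 KD cells (log2 fold change 1.66, adjusted p = 0.13, and 0.0018 with the block). OAS1 makes the activator of an antiviral ribonuclease, and 2.22% of all genes were called higher with the block. Without the block, log2 fold changes of the 17 genes ran from -0.45 to 2.02 with a median of 0.14, so OAS1 does not stand for the list.

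Class II genes, which present peptides taken up from outside the cell, had 2 of 8 tested called lower in AF9 KD cells and 0 higher, against 5.06% and 8.02% of all genes, with a median of -0.70. HLA-DRA, the alpha chain of HLA-DR, stood at 79 and 68 counts in control cells and at 14 and 43 counts in AF9 KD cells (log2 fold change -1.40, SE 0.36, adjusted p = 0.0098). CTSS, a protease that cuts the invariant chain, fell from 187 and 171 CPM to 91.1 and 99.1 CPM (log2 fold change -0.91, adjusted p = 4.7e-05). CIITA, the class II relative of NLRC5, was at a log2 fold change of -0.001 (adjusted p = 0.998). None of the 6 tested in MLL1 KD cells was called, and HLA-DRA was at 8 counts or fewer in every library there.

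Of 8 class I-like genes tested in AF9 KD cells, 1 was called higher and 0 lower, where 8.02% and 5.06% of all genes were, and the median log2 fold change was -0.25. FCGRT, a chain of the neonatal Fc receptor that also pairs with β2-microglobulin, rose (log2 fold change 0.71, SE 0.14, adjusted p = 0.0026), and it was at 0.34 and not called with the GC trend removed. Among ligands of the NKG2D receptor of natural killer cells, MICA was at -0.64 (adjusted p = 0.098) and was called lower with the GC trend removed (-0.78, adjusted p = 0.040). With that trend removed 3.70% of all genes were called lower. ULBP1, another ligand, was at -1.31 (SE 0.49, adjusted p = 0.060). The related ligand MICB stood at 43 to 46 counts in control cells and at 17 to 30 counts in MLL1 KD cells (log2 fold change -1.09, adjusted p = 0.22, and 0.021 with the block). With the block MICB was the 1 of 7 called lower, where 2.51% of all genes were. Of 7 further NLR-family genes tested, NLRX1 alone was called, higher in AF9 KD cells, where 8.02% of all genes were (log2 fold change 0.83, adjusted p = 3.9e-04, and 0.41 with the GC trend removed).

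**Figure D5:**
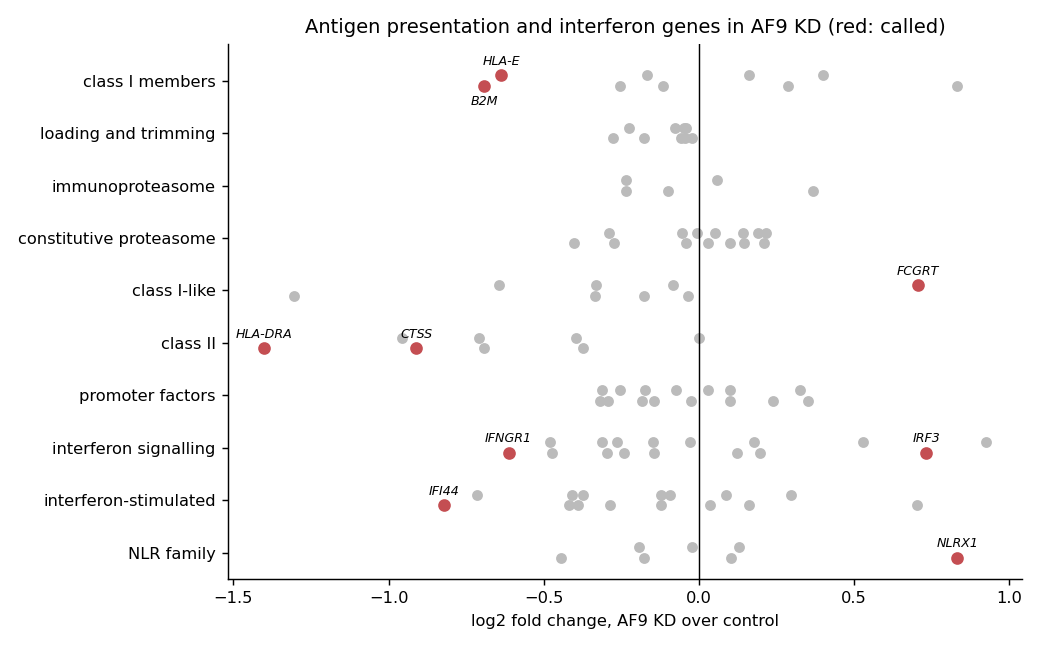
Log2 fold change in AF9 KD over control of every tested gene of each list (x axis), with called genes in red. B2M, HLA-E, CTSS, HLA-DRA, IFNGR1 and IFI44 lie to the left and FCGRT, IRF3 and NLRX1 to the right, while no loading, proteasome or promoter factor gene is called.

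The mean log2 level of the 8 genes tested in both experiments, centred on the control cells of each experiment, was -0.52, -0.20 and -0.28 in MLL1 KD replicates 1, 2 and 3 and -0.18 and 0.15 in AF9 KD replicates 1 and 2. The 5 genes most like this mean over the 10 libraries were MFGE8 (Pearson r = 0.98), FES (0.97), RPL3 (0.96), SLC25A29 (0.96) and NKAPP1 (0.95). These correlations are a description over libraries that share the centring on control cells, and they were chosen as the highest of all genes tested.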

How the data were processed

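Per the submitters' processing notes and the study's methods, the authors filtered strand-specific reads with fastp version 0.13.1, mapped them to hg38 with HISAT2 version 2.1.0 and counted them per gene with featureCounts version 1.6.1. The annotation behind the gene symbols is not given in the sources used here. The deposited values are raw counts per gene, as whole numbers without normalization, in 1 table per experiment. Of 28103 symbols, 92.4% were matched to GENCODE version 44, directly or by older symbol, for TPM (merged exon length), GC content and coordinates.

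Each table was analysed alone with R version 4.3.3 and edgeR version 4.0.16 (the quasi-likelihood F test with TMM normalization, two-sided, Benjamini-Hochberg adjustment over all genes tested). Genes whose TPM averaged 1 or more were kept. A call required a fold change of 1.5 and adjusted p under 0.05. Log2 CPM used a prior count of 2, and SD, SE and n refer to libraries. The difference between the KDs was a contrast over all 10 libraries. DESeq2 version 1.42.0, other scalings and filters, offsets from each library's lowess trend with GC content (span 0.3), the replicate block and each library left out were alternatives. DESeq2 with the block and replicates 2 and 3 alone were added after the data were seen.

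Deviations from the group mean correlated between same-numbered control and MLL1 KD libraries at 0.648, 0.326 and 0.352. Replicates 2 and 3 correlated as well across numbers (0.369 and 0.359), so the values set replicate 1 apart and do not show how replicates 2 and 3 pair. The block took the numbers to pair libraries, which for replicates 2 and 3 is given neither by these values nor by the labels. Counts were also simulated, with changes planted in 50 genes per fold, none of them of low count. In the MLL1 comparison 70% of 2-fold and 98% of 4-fold changes were recovered, with 9 false calls over 14393 genes. In the AF9 comparison 94% and 98% were recovered, with 8 false calls over 13331 genes. Simulated libraries were drawn independently and lacked the shared replicate 1 difference, so these shares are not the power of the real comparisons.

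The 9 genes and all lists were chosen with earlier results of these data known. Named are the 9 genes, both targets, the called genes of each list, and the 5 genes most like the mean of the 9. Figures were drawn with matplotlib version 3.10.9. CUT&Tag and PRO-seq samples were not analysed here, and 1 gene of the lists is not reported here.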

Additional observations from a re-analysis of the deposited data

Results flagged for a closer look

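B2M differed between the KDs by a direct test. Its log2 fold change in AF9 KD minus that in MLL1 KD was -0.71 (95% interval -0.99 to -0.42, adjusted p = 0.039 by edgeR over 12729 genes). B2M was lower in 2 of 2 AF9 KD libraries than in either control library, while its MLL1 KD and control libraries overlapped. The KDs had separate control cells, in which B2M stood at 1985 and 827 TPM, so the target and the experiment cannot be told apart. The adjusted p was above 0.05 with GC content offsets (difference -0.48, adjusted p = 0.13), with total counts (-0.60, adjusted p = 0.071) and with 9 of the 10 libraries left out in turn (adjusted p from 0.054 to 0.26 in those fits), and it was 6.7e-05 with the replicate block.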

How the results depend on the processing

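In the MLL1 experiment, the counts of class I genes called depended on the replicate block and on the replicate 1 libraries. With the replicate block 2 were called lower and 680 genes in all, against 0 and 9 without it. GC content offsets with the block gave 2 and 647, DESeq2 with the block 1 and 470, replicates 2 and 3 alone 2 and 707, and these with the block 2 and 694. DESeq2 called 232 genes in all and the fit with no filter beyond 1 count 32. With 1 library left out the count of all genes called ran from 0 to 53, the latter without MLL1 KD replicate 1, and 0 class I genes were called.

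In the AF9 experiment, total counts left 1 class I gene called lower and shifted the share of higher calls among all genes from 61.3% to 76.3%. A fold change of at least 2 left 0 and 510 genes in all, and no fold change threshold gave 3863 genes in all and 1 class I gene higher, NLRC5. HLA-F was the 1 called higher with no filter beyond 1 count, with the replicate block, and with GC content offsets and the block. Of all genes, 1168 of 18572, 1220 of 13331 and 651 of 13331 were called higher in these fits. Without AF9 KD replicate 1 the log2 fold change of HLA-F was 1.23. GC content offsets left 1092 genes in all, and 2 class I genes lower, now HLA-C and HLA-E. With 1 library left out, 1 to 2 class I genes were called lower, 0 to 1 higher, and 1055 to 1974 genes in all. Replicate numbers share only a number there (correlation of deviations 0.156), and the block moved the count of all genes called to 1958 from 1744. Of the lists, the block added MICA and ULBP1 as lower. It also added IRF7 (log2 fold change 0.91, adjusted p = 0.0495) and ISG15 (0.71, adjusted p = 0.014) as higher. Of all 13331 genes, the block called 738 lower and 1220 higher.

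Of the tests between the KDs, GC content offsets left 0 class I genes past the threshold and the replicate block 3. Of all 12729 genes, 1684 and 4601 were at an unadjusted p under 0.05 in these fits. With 1 library of the MLL1 experiment left out, 0 to 2 class I genes passed.

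Signs turned only for values near 0. B2M in MLL1 KD was at 0.00107 by DESeq2, 0.00081 with its size factors, 0.00126 with DESeq2 and the block, 4.74e-05 at a mean TPM of at least 5, and -0.029 to 0.016 with 1 library left out. Left-out libraries gave -0.30 to 0.26 for HLA-F, -0.32 to 0.12 for TAP2 and -0.16 to 0.022 for TAPBP in MLL1 KD, and replicates 2 and 3 alone gave 0.096 for HLA-F (0.095 with the block). In AF9 KD they gave -0.47 to 0.084 for HLA-B and -0.25 to 0.022 for TAP2, and GC content offsets gave 0.025 for TAP2 (0.027 with the block). For the difference between the KDs, TAP2 was at 0.077 with total counts, 0.12 with GC content offsets and -0.24 to 0.18 with 1 library left out, and HLA-E at -0.21 with GC content offsets and -0.26 to 0.29 with 1 library left out. The causes were not tested. Counts of 35 to 91 per library for HLA-B and HLA-F in the MLL1 experiment, and for HLA-F in the AF9 experiment, limit what can be seen of them.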
